A study of Pongo abelii with 6 samples.

Results

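Developmental transcription factor families were examined in orangutan induced pluripotent stem cells, which are somatic cells returned by reprogramming to a state like that of the early embryo. The species was Pongo abelii, the Sumatran orangutan. The members are protein-coding genes whose symbols belong to the HOX, SOX, FOX, KLF, POU, ZIC, OTX, SIX-class, PAX, GATA, TBX, LHX, DLX, IRX, NKX, MSX and EMX families, with TBXT and without SOX2 and FOXM1. The RefSeq gene table lists 212 such genes, and 168 of them had at least 1 transcript in the deposited table, out of 11922 protein-coding genes and 15205 genes of all kinds paired with a symbol. The cell lines were Djasinga and Dokana, and from each of them 3 total RNA libraries were made after removal of ribosomal RNA. Culture was on Matrigel, in iPS-Brew to which IWR1 and CHIR, small molecules that act on Wnt signalling, had been added, and both lines are induced pluripotent cells by title, although the labels' treatment field calls the cells differentiated and the genotype field speaks of small RNA. The libraries of a line come from sequential passages. The design text counts these as technical replicates, while the titles call the libraries biological replicates. Either way, SDs and p-values measure the spread between libraries of 1 line and not between animals.

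These families read out position and lineage in the embryo. HOX genes lie in clusters named A to D and mark position along the trunk. PAX, OTX, SIX-class, EMX, LHX and DLX genes pattern the head and nervous system, GATA, TBX and NKX genes specify mesoderm, endoderm and trophoblast, and SOX, FOX, KLF and POU families mix lineage regulators with factors used in most cells. In pluripotent cells many lineage regulators are known to be held in a repressed but inducible state by Polycomb complexes, while a small group, among them OTX2 and POU3F1, belongs to the primed pluripotent state itself.

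Levels are given in TPM, a length-corrected share of a library's transcripts, summed per gene over the transcripts paired with its symbol. A gene is called expressed here at 1 TPM or more in at least 3 of the 6 libraries, silent when below 0.1 TPM in all 6, and low otherwise. Read depth cannot be recovered from TPM, so it is unknown here, and a value near 0 carries no known counting error. Only 11.9% to 17.6% of each library's TPM fell on transcripts paired with a symbol, and 1 assembled transcript without a symbol held 26.7%, 37.7% and 42.4% of Djasinga replicates 1, 2 and 3 and 16.9%, 28.2% and 20.6% of Dokana replicates 1, 2 and 3. RNA of these genes may also lie in transcripts that carry no symbol, so "silent" describes the named transcripts. Of 41 paired genes for ribosomal proteins, proteasome subunits and RNA polymerase II subunits, chosen after the values were seen as genes most cells use, 35 were expressed and 3 silent. The silent 3 were RPL10L and PSMA8, known as testis genes, and PSMB11, known from the thymus. In contrast SUZ12, a core Polycomb subunit, was listed at 0 in all 6 libraries, so a 0 is given below as listed and no more. The pluripotency markers NANOG, SALL4, DNMT3B, LIN28B, CD24, ZFP42, USP44, L1TD1 and SOX2 were all expressed (9 of 9 paired of 11 listed, median of the gene means 44.3 TPM).

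Most members were silent or low. Of the 168 paired members, 22 were expressed (13.1%), 63 low (37.5%) and 83 silent (49.4%), and 22 of the silent genes were listed at 0 in every library. Among all 11922 paired protein-coding genes the shares were 42.7% expressed, 34.8% low and 22.5% silent. The median of the gene means was 0.0449 TPM over the members and 0.576 TPM over all paired protein-coding genes. The 22 expressed members carried 93.0% of the members' summed level. The number of members at 1 TPM or more was 24, 17 and 19 in Djasinga replicates 1, 2 and 3 and 21, 22 and 23 in those of Dokana. The summed level of all members was 258, 204 and 171 TPM in Djasinga and 252, 277 and 296 TPM in Dokana, and SOX4 alone made up 26.9% to 36.5% of it in Djasinga and 33.9% to 40.9% in Dokana. Setting Djasinga replicate 3 or Dokana replicate 3 aside gave 21 and 20 expressed and 83 and 85 silent members.

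**Figure D1:**
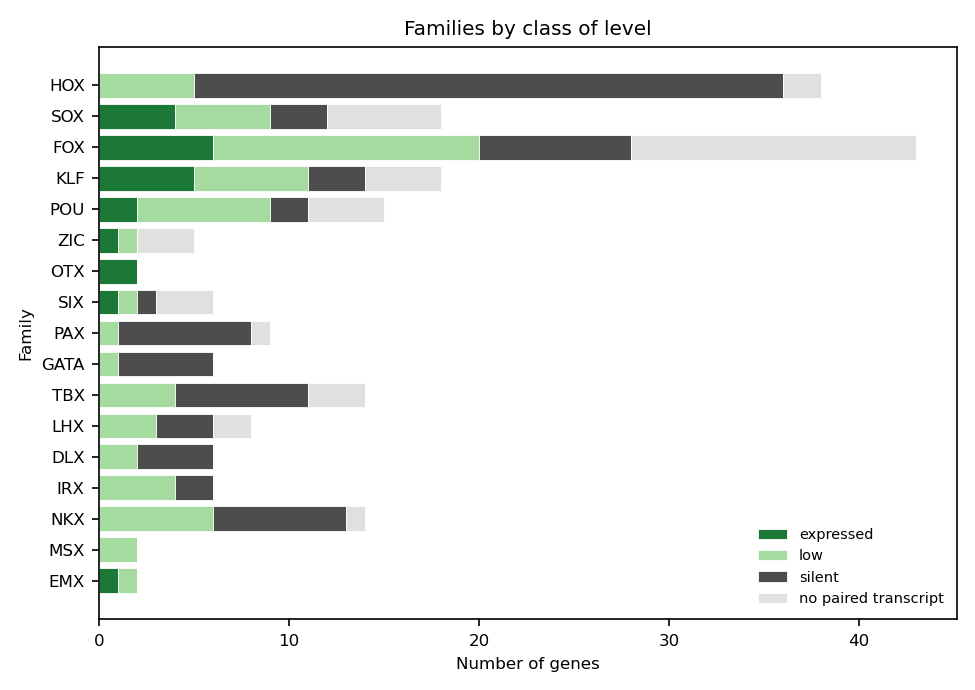
Number of genes per family (horizontal axis) that were expressed, low or silent, or that had no paired transcript. All 6 GATA and 8 paired PAX genes, and 36 paired HOX genes, have no dark green segment, while both OTX genes are expressed.

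The shares of the classes differed between families, although the FOX, KLF, SOX and POU families had genes in every class. The expressed members were 6 of 28 paired FOX genes, 5 of 14 KLF genes, 4 of 12 SOX genes, both OTX genes, 2 of 11 POU genes, and, among the smaller families, SIX4 and EMX2. None of the 36 HOX, 13 NKX, 11 TBX, 8 PAX, 6 GATA, 6 LHX, 6 DLX, 6 IRX and 2 MSX genes paired with a transcript reached 1 TPM in 3 libraries. Silent genes made up 86.1% of the paired HOX, 87.5% of the PAX and 83.3% of the GATA genes, against 25.0% of the SOX and 21.4% of the KLF genes. Over all paired protein-coding genes the silent share was 22.5%.

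Values of single libraries are given in the order of replicates 1, 2 and 3. Among the SOX genes the group C factors stood highest. SOX4, which acts in progenitors of many tissues, measured 94.3, 69.3 and 46.0 TPM over the Djasinga replicates, set against 90.0, 113 and 100.5 TPM over the Dokana replicates. It was the most abundant member, at percentile 99.0 of the paired protein-coding genes, and its ranges in the lines overlapped through Djasinga replicate 1. SOX12, of the same group, had 16.6, 20.9 and 21.3 TPM across the Djasinga libraries, against 22.2, 21.5 and 29.8 TPM across the Dokana libraries, with every Djasinga library below every Dokana library. The third gene of this group, SOX11, had no paired transcript.

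SOX1 and SOX10, which mark the neural plate and the neural crest, lay close to the line between low and expressed. SOX1 measured 1.83, 0.643 and 0.345 TPM over the Djasinga replicates, set against 1.32, 1.03 and 0.972 TPM over the Dokana replicates. SOX10 had 1.17, 0.920 and 0.534 TPM across the Djasinga libraries, against 1.33, 1.14 and 1.25 TPM across the Dokana libraries. Both had their lowest value in Djasinga replicate 3. Just below the line, SOX14, a neural gene of group B2, measured 1.03, 0.714 and 0.523 TPM over the Djasinga replicates, set against 0.791, 1.09 and 0.919 TPM over the Dokana replicates. The group F genes SOX7 and SOX18, known from endoderm and blood vessels, were low, and SOX17, which specifies endoderm and germ cells, was silent with a highest value of 0.0145 TPM. SOX6, needed for cartilage, and SOX30, known from the testis, were silent as well.

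OTX2, a homeodomain factor of the primed epiblast and of the anterior head, was the highest homeodomain gene among the members. Its level was 7.14, 17.5 and 12.2 TPM in Djasinga and 21.7, 8.74 and 23.0 TPM in Dokana, so that the libraries of each line spread widely and overlapped. OTX1, its relative in forebrain development, had 2.94, 1.65 and 3.56 TPM across the Djasinga libraries, against 3.18, 6.12 and 3.98 TPM across the Dokana libraries. ZIC4, which acts in the cerebellum, was low, with 0.148, 0.0429 and 0 TPM in Djasinga, and was listed at 0 in the 3 Dokana libraries.

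POU3F1, also called OCT6 and known from the epiblast and from glia, had 2.53, 5.89 and 4.38 TPM across the Djasinga libraries, against 5.67, 3.45 and 5.64 TPM across the Dokana libraries. POU2F1 (OCT1), a factor of most cell types, measured 1.55, 0.834 and 1.99 TPM over the Djasinga replicates, set against 1.38, 1.93 and 1.56 TPM over the Dokana replicates. The libraries of the lines overlapped for both genes. The low POU genes were POU6F1, POU2F2, POU5F2, POU3F2, POU2F3, POU4F1 and POU3F4, of which POU6F1 had the highest mean (0.612 ± 0.102 TPM in Djasinga and 0.851 ± 0.0829 TPM in Dokana, SD, n = 3 each). The pituitary factor POU1F1 and the retinal factor POU4F2 were silent.

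SIX4, a homeodomain factor of muscle and kidney development, had 8.10, 4.88 and 4.13 TPM across the Djasinga libraries, against 6.82, 8.25 and 7.86 TPM across the Dokana libraries. SIX2, known from kidney progenitors, was low (0.579 ± 0.0901 TPM in Djasinga and 0.628 ± 0.106 TPM in Dokana). EMX2, a factor of the cerebral cortex and the urogenital tract, measured 0.962, 0.955 and 1.27 TPM over the Djasinga replicates, set against 1.35, 0.784 and 1.24 TPM over the Dokana replicates, and its paralogue EMX1 did not exceed 0.109 TPM.

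The expressed FOX genes were mainly ones known from general cell physiology. FOXJ3 had 15.4, 11.6 and 10.9 TPM across the Djasinga libraries, against 14.1, 14.0 and 18.8 TPM across the Dokana libraries. FOXN3, a transcriptional repressor, measured 12.2, 8.65 and 10.4 TPM over the Djasinga replicates, set against 13.4, 14.7 and 17.6 TPM over the Dokana replicates, with no overlap between the lines. FOXO3, a stress-response factor restrained by insulin signalling, had 11.4, 8.98 and 7.20 TPM across the Djasinga libraries, against 8.28, 8.95 and 10.2 TPM across the Dokana libraries. The list of such FOX factors holds 11 genes and was written with earlier results of these data known. Of its 6 paired genes, 5 were expressed. The other one, FOXP4, lay just under the line, with 0.546, 0.533 and 0.617 TPM for Djasinga against 0.788, 0.853 and 1.01 TPM for Dokana, lower in every Djasinga library.

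FOXN2 measured 7.62, 5.51 and 3.57 TPM over the Djasinga replicates, set against 8.14, 6.79 and 9.19 TPM over the Dokana replicates. FOXP1, which has a splice form described in human embryonic stem cells, had 0.837, 1.94 and 2.12 TPM across the Djasinga libraries, against 1.18, 1.22 and 1.87 TPM across the Dokana libraries. Their libraries overlapped between the lines. FOXP1 rested on 7 of the 44 transcripts that the RefSeq table lists for it. The only expressed FOX gene with a lineage role among the lists was FOXA3, a pioneer factor of endoderm and liver, with 5.26, 4.46 and 5.19 TPM across Djasinga libraries and 5.07, 4.67 and 6.96 TPM across Dokana libraries. Its relatives FOXA1 and FOXA2 did not share this level: FOXA1 was silent, and FOXA2, the regulator of definitive endoderm, did not exceed 0.102 TPM. FOXF1, FOXF2, FOXD1, FOXE3, FOXJ1, FOXN1 and FOXQ1 were silent too.

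KLF10, a zinc finger gene induced by TGF-beta, measured 22.3, 10.1 and 8.10 TPM over the Djasinga replicates, set against 12.8, 21.4 and 14.7 TPM over the Dokana replicates. KLF3, a repressor of other KLF targets, had 10.9, 4.64 and 5.59 TPM across the Djasinga libraries, against 7.70, 10.5 and 9.20 TPM across the Dokana libraries. For this pair Djasinga replicate 1 had the highest of the 6 values, and the lines overlapped. KLF11 (2.72 ± 0.318 TPM in Djasinga and 2.96 ± 1.13 TPM in Dokana), KLF12 (1.10 ± 0.310 and 1.12 ± 0.243 TPM) and KLF7 (1.19 ± 0.556 and 1.09 ± 0.536 TPM) followed (SD, n = 3 each, Djasinga first). KLF7, known from neurons, was the last gene above the line, with a third-highest library at 1.01 TPM.

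The KLF genes tied to naive pluripotency, the state of the earlier embryo, were not expressed by this rule. KLF5 measured 2.40, 0.970 and 0.520 TPM over the Djasinga replicates, set against 0.653, 1.08 and 0.957 TPM over the Dokana replicates, just under the line. KLF4, a factor used in reprogramming, had 0.549, 0.770 and 0.500 TPM across the Djasinga libraries, against 0.674, 0.768 and 0.821 TPM across the Dokana libraries. KLF17, a marker of the human naive state, measured 0.0518, 0.183 and 0.0635 TPM over the Djasinga replicates, set against 0.0356, 0.0493 and 0.0742 TPM over the Dokana replicates, and KLF2 was silent.

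**Figure D2:**
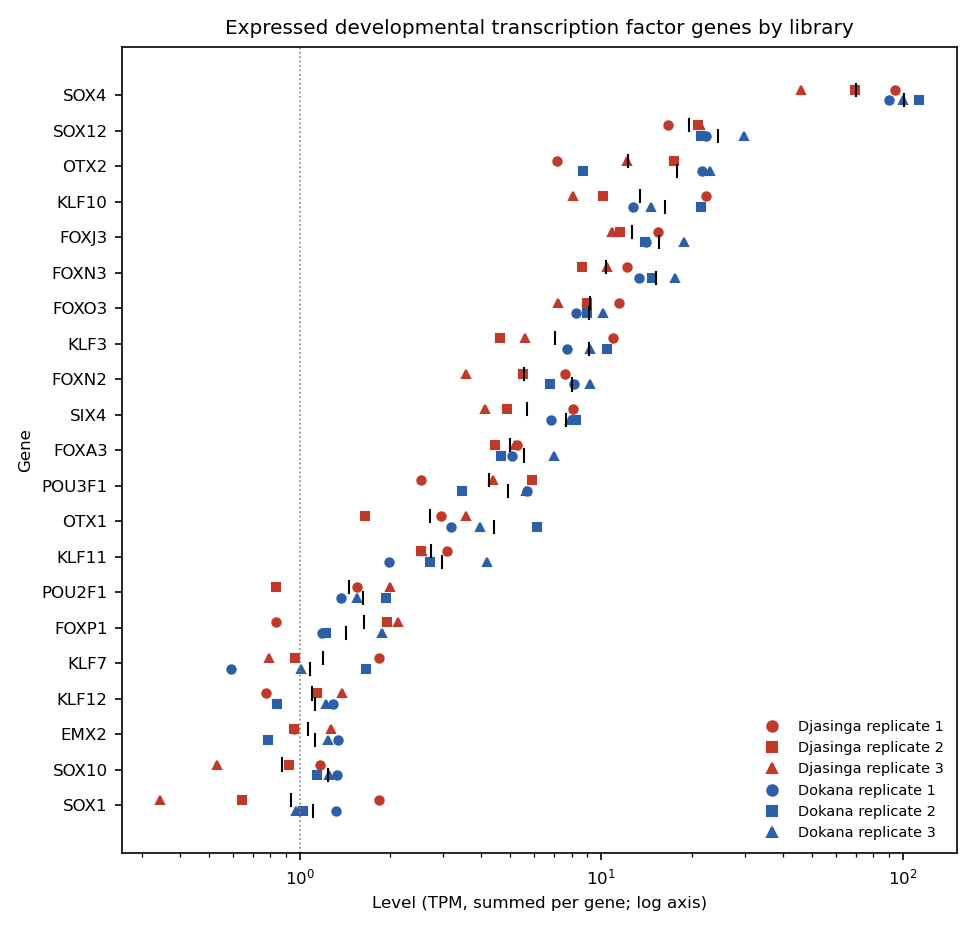
Level of the expressed members named here in each library, in TPM on a log axis, with 1 symbol per library (red, Djasinga; blue, Dokana) and a black tick at each line's mean. SOX4 lies above all others, and in FOXN3 and SOX12 every Djasinga symbol lies to the left of every Dokana symbol.

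HOX genes were at or near 0 in both lines. Of 36 paired HOX genes, 31 were silent and 20 were listed at 0 in all 6 libraries: 7 of 11 in cluster A, 5 of 9 in cluster B, 4 of 8 in cluster C and 4 of 8 in cluster D. Cluster A, whose genes pattern hindbrain, trunk and limbs, had no gene above 0.0428 TPM in any library. The summed level of its 11 genes was 0.0232, 0.0267 and 0 TPM in Djasinga and 0.0342, 0.0326 and 0.0428 TPM in Dokana. The 5 HOX genes outside the silent class were HOXD13, HOXB6, HOXB7, HOXD8 and HOXC9, and the highest value of any of them was 0.296 TPM, for HOXB6 in Djasinga replicate 3. HOXD13, the last gene of its cluster and a factor of digits, had 0.253, 0.139 and 0.274 TPM across the Djasinga libraries, against 0.229, 0.226 and 0.247 TPM across the Dokana libraries. HOXB7, a trunk gene, measured 0.191, 0.158 and 0.214 TPM over the Djasinga replicates, set against 0, 0.0228 and 0.0659 TPM over the Dokana replicates. Its lines did not overlap, and in bulk RNA fewer cells of a type and less RNA per cell cannot be told apart.

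**Figure D3:**
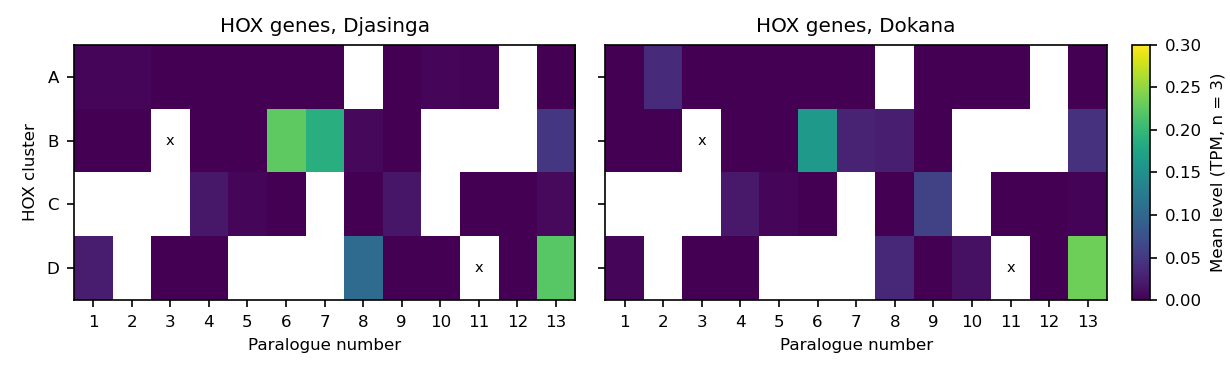
Mean level of each HOX gene (colour, TPM, n = 3 libraries per line) by cluster and paralogue number, Djasinga on the left and Dokana on the right. Crosses mark HOXB3 and HOXD11, which had no paired transcript, and blank squares have no gene of that name in the list. The colour scale ends at 0.300 TPM, and the brighter squares are HOXB6, HOXD13 and, in Djasinga, HOXB7.

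The GATA, TBX and NKX genes, which hold many regulators of mesoderm, endoderm, trophoblast and blood, were silent or low where paired. TBXT (brachyury), which drives the primitive streak, had 0, 0 and 0.0180 TPM across the Djasinga libraries, against 0, 0.0574 and 0 TPM across the Dokana libraries. Among the GATA genes GATA1, a red blood cell factor, had the highest mean (0.0446 ± 0.0304 TPM in Djasinga and 0.0617 ± 0.0153 TPM in Dokana). GATA6, of primitive endoderm and heart, was above 0 only in Djasinga replicate 1 (0.00910 TPM), and GATA3, a trophoblast factor, did not exceed 0.0437 TPM. Of the TBX genes TBX5, which patterns heart and forelimb, was listed at 0 in all 6 libraries, and TBX19, of the pituitary, had the highest mean (0.108 ± 0.0482 TPM in Djasinga and 0.174 ± 0.0350 TPM in Dokana). NKX2-5 (heart) and NKX2-1 (lung, thyroid and forebrain) were silent.

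None of the paired PAX, DLX, MSX and IRX genes, several of them neural or craniofacial regulators, was expressed either. PAX6, the regulator of eye and neural tube, was listed at 0 in the 3 Djasinga libraries and had 0.0132, 0.00605 and 0 TPM in the Dokana libraries. PAX2, PAX5, PAX7 and PAX8, of kidney, B cells, muscle and thyroid, were silent, and PAX4, of the pancreas, had the highest mean of the family without passing 0.0954 TPM. That was the highest value of any silent member, while the low members nearest to it, FOXA2 and FOXC1, reached 0.102 TPM. DLX3, the highest DLX gene, was at 0.0795 ± 0.00656 TPM in Djasinga and 0.132 ± 0.0639 TPM in Dokana, and DLX1, DLX2, DLX5 and DLX6 were silent. MSX2 (0.0987 ± 0.0588 TPM in Djasinga and 0.134 ± 0.0204 TPM in Dokana) and MSX1 were low. IRX3 was the highest IRX gene, with 0.855, 0.453 and 0.0592 TPM across Djasinga libraries and 0.710, 0.857 and 0.740 TPM across Dokana libraries, and Djasinga replicate 3 stood far below the other libraries.

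By lineage list, the neuroectoderm list held the most expressed genes. The lists were written with earlier results of these data known. Of the 18 neuroectoderm genes 11 were paired, and of these 6 were expressed, 4 low and 1 silent. Over all paired protein-coding genes 42.7% were expressed. The expressed genes of the list included OTX1, OTX2 and POU3F1, with SOX1 and EMX2 close to 1 TPM. OTX2 and POU3F1 also belong to the primed pluripotent state, as said above. The summed level of the list was 26.2, 34.0 and 28.2 TPM in Djasinga and 43.1, 27.7 and 44.9 TPM in Dokana. Of 13 paired mesendoderm and endoderm genes 2 were expressed, FOXA3 and the secreted antagonist CER1 (1.95 ± 0.0843 TPM in Djasinga and 3.08 ± 0.329 TPM in Dokana). In the neural crest list SOX10 alone of 6 paired genes was expressed. None of 11 mesoderm and heart genes, 7 trophoblast and amnion genes and 5 blood and endothelium genes was expressed, and their summed levels over the 6 libraries were 0.715 to 1.25, 0.177 to 0.758 and 0.954 to 1.60 TPM. The fibroblast list had 3 of 6 expressed (COL1A2, TWIST2 and THY1), and THY1 is also a marker of primed pluripotent cells. The collagen gene COL3A1 and the list's TBX15 and FOXF2 were silent.

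Some neural members were highest in Djasinga replicate 1, while other neural genes were lowest there. Of 10 neuroectoderm list genes with a mean of at least 0.1 TPM, that library was the highest for 3 and the lowest for 3. LHX5, a forebrain LIM-homeodomain factor, had 1.59, 0.657 and 0.349 TPM across the Djasinga libraries, against 0.828, 0.415 and 0.324 TPM across the Dokana libraries. Replicate 1 was the highest library of each line, and Djasinga replicate 1 the highest of all.

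SOX21, a gene of neural progenitors, measured 1.13, 0.186 and 0.155 TPM over the Djasinga replicates, set against 0.493, 0.108 and 0.0688 TPM over the Dokana replicates. SOX5, which acts in neurons and cartilage, had 0.656, 0.0895 and 0.142 TPM across the Djasinga libraries, against 0.313, 0.168 and 0.0881 TPM across the Dokana libraries. These genes were singled out after their values were seen, and have no test. Of 10 members with a mean of at least 0.1 TPM whose highest library exceeded 2 times the median of the 6, that library was Djasinga replicate 1 for 7, among them SOX21, IRX2, SOX5, LHX5, IRX4 and KLF5. Over all protein-coding genes of this kind it was Djasinga replicate 1 for 22.9% of 1169 and Dokana replicate 3 for 35.7%. Both subsets were chosen by the same highest value that was then counted, so these counts test nothing. KLF5, among the 7, stood on the naive pluripotency list and on none of the neural ones. PAX6 was listed at 0 in Djasinga replicate 1, as in the other Djasinga libraries, and its highest value was 0.0132 TPM in Dokana replicate 1. MAP2, a neuronal protein, had 0.874, 0.858 and 0.648 TPM in Djasinga and 2.16, 0.377 and 1.30 TPM in Dokana. Replicate 1 was its highest library in each line, and Dokana replicate 1 the highest of all.

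OTX2 and POU3F1 showed another order. In each line both genes had their lowest value in the same library, Djasinga replicate 1 and Dokana replicate 2. HESX1, a homeodomain repressor of the anterior head outside the families examined, had the same lowest libraries, with 11.6, 32.5 and 32.7 TPM in Djasinga and 90.2, 33.4 and 78.8 TPM in Dokana. KLF10, KLF3, SIX4, SOX4 and KLF7 had their highest value in those 2 libraries of the lines. These orders were noticed in the values and were not tested.

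**Figure D4:**
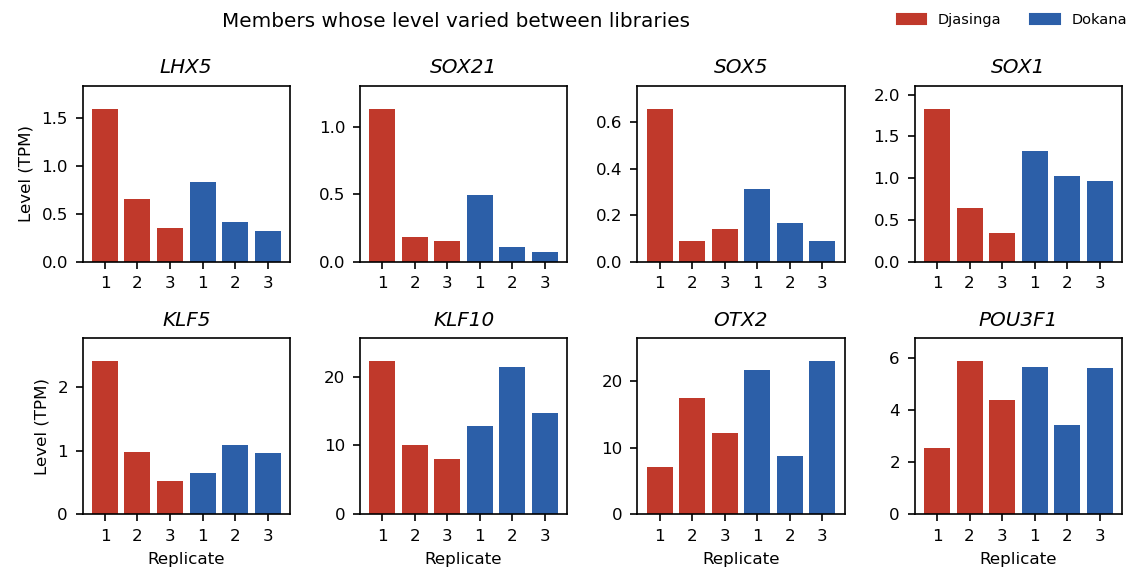
Level in TPM (vertical axes from 0, scaled per gene) of 8 members in each library, with red bars for Djasinga replicates 1 to 3 and blue bars for Dokana replicates 1 to 3. LHX5, SOX21 and SOX5 are highest in replicate 1 of each line, KLF10 is highest and OTX2 and POU3F1 are lowest in Djasinga replicate 1 and Dokana replicate 2.

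The lines were compared gene by gene to ask whether any of these factors differed between them. None of the 22 members that passed the filter of 1 TPM in at least 3 libraries passed the test for a difference between Djasinga and Dokana (limma on log2(TPM + 1), adjusted p under 0.05 over 6255 genes). Over all genes tested, 22 were called, which is 0.352%, and with the replicate number as a block 5 genes and 0 members were called. At an unadjusted p under 0.05 there was 1 member, FOXN3, where 14.8% of all genes lay. FOXN3 averaged 10.4 ± 1.75 TPM in Djasinga and 15.3 ± 2.15 TPM in Dokana (SD, n = 3 each), a log2 difference of -0.51 (SE 0.20, 95% interval -0.98 to -0.05, limma adjusted p 0.326). After median-ratio scaling the FOXN3 difference was -0.20 (limma adjusted p 0.899). No member had an unadjusted p under 0.05 with that scaling, with quantile normalization or with the replicate block. Without Djasinga replicate 1 there were 6 of 20 members (limma), all lower in Djasinga, where 1086 of 6052 genes lay. Leaving out any other library gave 0 or 1 member. Over protein-coding genes alone there were 3 of 22 members, all lower in Djasinga, where 1018 of 5089 genes lay.

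The direction of the members followed that of genes in general. Of the 22 members tested, 20 had a value below 0, that is lower in Djasinga, as did 86% of all genes tested, and the median difference was -0.28 for the members and -0.29 for all genes. After median-ratio scaling 11 members were below 0 of 23 tested, and the median was 0.03 for the members and -0.02 for all genes. The most abundant transcript and Dokana replicate 3 are set beside this shift. That transcript held 26.7% to 42.4% of the Djasinga libraries and 16.9% to 28.2% of the Dokana libraries, so that the lines overlapped. Dokana replicate 3 was the highest library for 55.5% of 8335 protein-coding genes with a mean of at least 0.1 TPM and for 8 of the 22 expressed members. Without the most abundant transcript, an alternative chosen after seeing the data, the median difference of all genes was -0.07. Without Dokana replicate 3 it was -0.20. The cause of the shift was not tested.

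SOX4 averaged 69.9 ± 24.1 TPM in Djasinga and 101 ± 11.8 TPM in Dokana, the largest difference by size among the tested members as deposited (log2 difference -0.58, SE 0.27, 95% interval -1.23 to 0.06, limma adjusted p 0.344). Set relative to the median gene, the difference was -0.29, smaller in size than the 0.39 of FOXP1 and the 0.37 of KLF7. After median-ratio scaling it was -0.24, smaller than the 0.31 of FOXP1, the 0.30 of FOXO3 and the -0.29 of OTX1. With that scaling KLF7 did not exceed SOX4 in size (0.235 against -0.245). Without Djasinga replicate 3 the SOX4 difference as deposited was -0.32. With a pseudocount of 0.1 in place of 1, OTX1 had a larger difference (-0.70) than SOX4 (-0.59). OTX2 averaged 12.3 ± 5.17 TPM in Djasinga and 17.8 ± 7.90 TPM in Dokana, and its interval from -1.50 to 0.55 was the widest of the tested members (limma adjusted p 0.531). For FOXO3 the means were 9.20 ± 2.12 TPM in Djasinga and 9.13 ± 0.946 TPM in Dokana, with a log2 difference of -0.01 and an interval from -0.50 to 0.49 (limma adjusted p 0.986). FOXP1 and KLF7 were the tested members with a difference above 0 (0.09 and 0.08, limma adjusted p 0.829 and 0.862). The libraries of the lines did not overlap in 3 of 22 members, among them FOXN3 and SOX12, all lower in Djasinga, where 24.5% of all genes tested did so. None was higher without overlap, where 1.18% of all genes were.

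**Figure D5:**
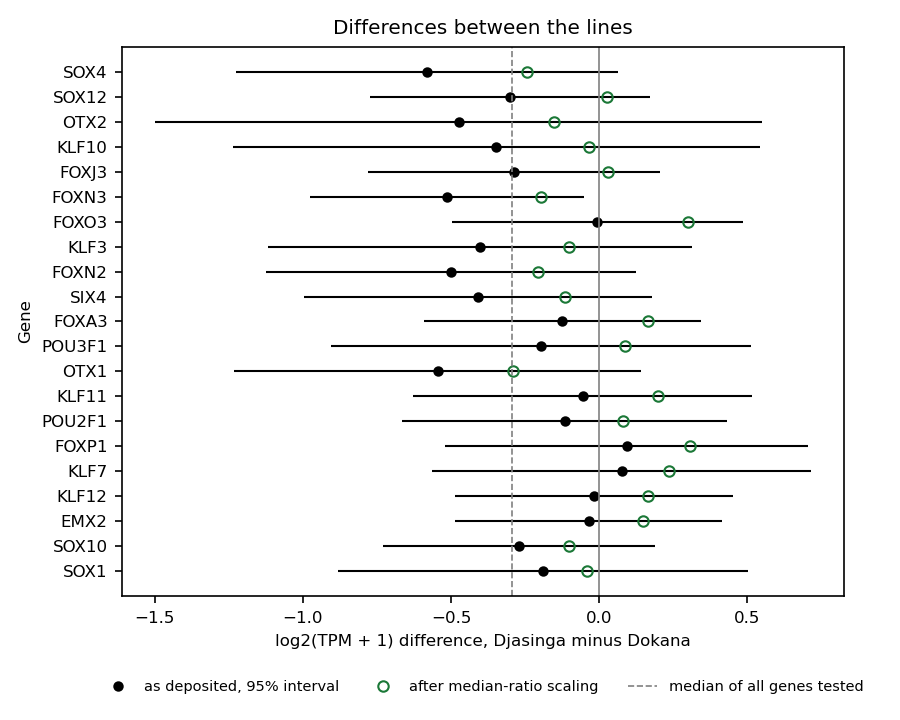
Difference between the lines (Djasinga minus Dokana) on the log2(TPM + 1) scale for the tested members named here, as deposited with 95% intervals (filled) and after median-ratio scaling (open). The dashed line is the median of all genes tested, at -0.29, and the FOXN3 interval is the one that does not reach 0.

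The members below the filter were compared in the same model without a filter. Of 146 members with any value above 0, 0 passed the threshold where 0.124% of 12871 genes did, and 6 had an unadjusted p under 0.05 (limma), where 10.8% of all genes had. Those 6 were HOXB7 and TBX20, higher in Djasinga, and FOXN3, DLX4, HOXA2 and NKX2-2, lower. HOXB7 had the smallest adjusted p, 0.227 (limma, log2 difference 0.21, SE 0.04). TBX20, a heart factor, measured 0.0973, 0.107 and 0.0828 TPM over the Djasinga replicates, set against 0.0419, 0.0393 and 0.0173 TPM over the Dokana replicates (limma adjusted p 0.392). Over all 168 paired members, 11 were lower in Djasinga without overlap, where 16.4% of 11922 protein-coding genes were. Another 6 were higher without overlap (FOXB2, HOXB7, NKX2-4, POU4F1, POU5F2 and TBX20, or 3.57%), where 1.56% of protein-coding genes were. The highest value among these 6 was 0.306 TPM.

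Counted per line, at 1 TPM in at least 2 of 3 libraries, 18 members were expressed in Djasinga and 22 in Dokana, and all 18 were among the 22. The other 4 were EMX2, KLF7, SOX1 and SOX10, with means between 0.875 and 1.24 TPM in both lines. Silent in all 3 libraries of a line were 94 members in Djasinga and 93 in Dokana, with 83 shared.

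A list of developmental regulators was drawn up from outside the families, although 1 of its genes, the silent TBX21, is also a TBX member. Of 46 paired genes on that list, 8 were expressed, 20 low and 18 silent, and 0 of the 8 tested passed the threshold (limma, 2 at an unadjusted p under 0.05, both lower in Djasinga). The highest was HESX1, at 25.6 ± 12.1 TPM in Djasinga and 67.5 ± 30.0 TPM in Dokana (log2 difference -1.38, SE 0.51, limma adjusted p 0.326). PRDM14, a repressor that sustains pluripotency, was at 8.93 ± 2.71 TPM in Djasinga and 12.7 ± 3.58 TPM in Dokana. TGIF2, a repressor of TGF-beta targets, GBX2, PKNOX1, TWIST2, MEIS3 and PRDM1 were the other expressed genes. EOMES and GSC, regulators of the primitive streak, were low, and CDX2, a trophoblast and hindgut factor, and HAND1 were silent.

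Most Polycomb and Trithorax genes paired with a transcript, which regulate many of these families, were expressed. Of 15 paired genes of 29 listed, 11 were expressed, and 0 of 11 tested passed the threshold (limma, 0 at an unadjusted p under 0.05). EZH2, the methyltransferase of Polycomb complex PRC2, had 4.17, 7.75 and 13.2 TPM across the Djasinga libraries, against 10.4, 4.67 and 13.9 TPM across the Dokana libraries. Its lowest library in each line was that of OTX2. JARID2, which guides this complex, was at 25.1 ± 6.40 TPM in Djasinga and 21.7 ± 3.35 TPM in Dokana, and RNF2, a ubiquitin ligase of complex PRC1, at 22.4 ± 3.83 TPM in Djasinga and 32.5 ± 7.17 TPM in Dokana.

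The 44 members without a paired transcript were not analysed here. They were 15 FOX genes (among them FOXD3, FOXH1 and FOXO1), 6 SOX genes (SOX3, SOX8, SOX9, SOX11, SOX13 and SOX15), 4 KLF genes (KLF6, KLF9, KLF13 and KLF16), 4 POU genes, 3 each of the ZIC, TBX and SIX-class genes, 2 each of the HOX and LHX genes, PAX9 and NKX6-3. Of 22189 protein-coding genes listed by RefSeq, 10267 had no paired transcript, and of the 127 ribosomal protein, proteasome and RNA polymerase II genes 86 had none. The expressed members were covered by 35 of their 157 RefSeq transcripts and the silent ones by 106 of 209, so that sums over expressed genes with many transcripts, such as FOXN3 (1 of 14) and KLF12 (2 of 23), may be partial.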

How the data were processed

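Total RNA, depleted of ribosomal RNA, was sequenced in 6 libraries, 3 per line. The authors deposited 1 TPM value for each transcript and library, per the file headers. The deposited table also has 2 flag columns of another kind (0 or 1) for HERV entries, per the file headers, which were not used here. The submitters' processing notes name STAR, StringTie, FastQC 0.11.9 and Trimmomatic 0.39, without their roles. Which tool quantified the transcripts, and on which build and annotation, is not given in the labels or file headers. TPM keeps no depth.

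Accessions were matched without version to RefSeq's gene table (assembly NHGRI_mPonAbe1-v2.0), which named 22112 of 43705 RefSeq transcripts (3321 with version too), and TPM was summed per symbol. Lines were compared as Djasinga minus Dokana with limma-trend on log2(TPM + 1), which understates changes of low genes, on genes reaching 1 TPM in 3 or more libraries, with two-sided p-values adjusted by Benjamini-Hochberg over all genes tested and a threshold of 0.05. The test was run on simulated data in which the changed genes went up or down at random. The shift of most genes toward lower values in Djasinga was not simulated. The labels give the replicate number under a batch tag, so a fit with it as a block was run too. Same-numbered libraries did not deviate together from their lines' means (Pearson correlation -0.093, -0.130 and 0.152 across genes for numbers 1, 2 and 3). Members and lists were chosen with earlier results of these data known. Genes named with values in every library were the 10 highest members, the highest of each family, those nearest the expressed threshold, expressed OTX, POU and FOX genes and KLF genes of the naive state; others were chosen after their values were seen, and some were given as mean and SD. Some members are counted but not reported by name here. Promoter composition was planned and not analysed here. The test ran in limma 3.58.1 under R 4.3.3, and tables and plots were made in Python 3.11.15 (pandas 2.3.3, numpy 2.4.6, matplotlib 3.10.9).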

Additional observations from a re-analysis of the deposited data

How the results depend on the processing

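None of the 22 members tested was called in any fit run. The count of all genes called, 22 as reported, was 12 at a filter of 2 TPM, 10 with a pseudocount of 0.1, 5 with the replicate block, 48 over protein-coding genes alone, 232 over single transcripts and 0 of 1400 with the accession version required (limma, 135 at an unadjusted p under 0.05). Leaving out 1 library at a time gave 4 (without Djasinga replicate 3) to 22 genes, with 13 without Djasinga replicate 1 and 8, 6 and 7 without Dokana replicates 1, 2 and 3. Requiring the version left 4 members paired, 1 expressed and 3 silent. Expressed members were 20 to 22, and silent members 83 to 87, without 1 library. With thresholds of 0.5 and 0.05 TPM they were 33 and 63, with 2 and 0.2 TPM 15 and 109, and without the most abundant transcript 26 and 71. Member differences crossed 0 after median-ratio scaling (SOX12 0.028, FOXJ3 0.030, FOXO3 0.30, FOXA3 0.16, POU3F1 0.087, KLF11 0.20, POU2F1 0.082, KLF12 0.17, EMX2 0.15), after quantile normalization (SOX12 0.037, FOXJ3 0.063, FOXO3 0.31, FOXA3 0.17, POU3F1 0.11, KLF11 0.18, POU2F1 0.060, KLF12 0.23, EMX2 0.20, SOX1 0.14), without the most abundant transcript, an alternative chosen after seeing the data (FOXO3 0.25, FOXA3 0.12, POU3F1 0.041, KLF11 0.16, POU2F1 0.054, KLF12 0.16, EMX2 0.14), and for single transcripts (KLF11 0.014). Without 1 library they ranged from -0.16 to 0.14 for FOXO3, -0.22 to 0.023 for FOXA3, -0.42 to 0.066 for POU3F1, -0.24 to 0.16 for KLF11, -0.27 to 0.081 for POU2F1, -0.049 to 0.33 for FOXP1, -0.10 to 0.21 for KLF7, -0.12 to 0.10 for KLF12, -0.16 to 0.0015 for EMX2 and -0.24 to 0.037 for SOX1. The median gene was at -0.29 as deposited, -0.02 after median-ratio scaling, -0.005 after quantile normalization and -0.07 without the most abundant transcript. Median-ratio scaling divides each library by a factor, which was 0.857 to 0.960 in Djasinga and 0.996 to 1.34 in Dokana. Quantile normalization gives all libraries the same distribution of values and uses no such factor. The cause of the changes was not tested. Promoter composition was not run. The labels' batch tag repeats the replicate number, and the block on it left 5 of 22 calls in number and 0 members called.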
